A study of Mus musculus with 6 samples.

Results

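Of the 31529 genes in the deposited table, 10 genes of fatty acid synthesis were followed in the heart of fetal mice between embryonic days 16.5 (E16.5) and 18.5 (E18.5). They were chosen by name: the transcription factors Srebf1 and Mlxipl, the acetyl-CoA carboxylases Acaca and Acacb, the fatty acid synthase Fasn, the desaturases Scd1 and Scd2, the elongase Elovl6 and the diacylglycerol acyltransferases Dgat1 and Dgat2. Each name matched 1 row of the table, and all 10 passed the filter on low counts. The hearts came from wild-type mice of the outbred ICR stock, untreated as far as the labels say, with 3 libraries of polyadenylated RNA at each stage that the series calls biological replicates. How many hearts went into a library, and from how many litters, was not given in the sources used here, so p-values measure the spread between these libraries.

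New fatty acids are built in the cytosol. Acetyl-CoA carboxylase turns acetyl-CoA into malonyl-CoA, fatty acid synthase joins these units into palmitate, Elovl6 lengthens palmitate to stearate, the stearoyl-CoA desaturases introduce a double bond, and the diacylglycerol acyltransferases complete the triglyceride. SREBP-1, the product of Srebf1, and ChREBP, the product of Mlxipl, are the factors known in liver and fat to turn these enzymes on, the first in response to insulin and to the liver X receptors and the second in response to sugar. In heart muscle, Acacb lies at the mitochondrial surface, where its malonyl-CoA holds back the entry of fatty acids for oxidation.

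Promoter sequence was available for 6 of the 10 genes, as 9 windows of 300 bases, each from 250 bases before a start site to 50 bases after it (RefSeq, GRCm38.p6). Srebf1 and Mlxipl are shown because they had the smallest p-values of the 10 genes, and Fasn as the enzyme whose promoter is the textbook example of control by SREBP-1. All are written 5′ to 3′ on the strand of the gene. Capitals mark every match, on either strand, to the E-box CACGTG, the sterol regulatory element TCACNCCAC, the NF-Y box CCAAT and the GC box GGGCGG. The Srebf1 window lies at chr11:60210422-60210721 on the minus strand and is the most downstream of 3. The Mlxipl windows lie at chr5:135089640-135089939 and chr5:135106641-135106940 on the plus strand, and the Fasn window at chr11:120824498-120824797 on the minus strand.
Srebf1, downstream start: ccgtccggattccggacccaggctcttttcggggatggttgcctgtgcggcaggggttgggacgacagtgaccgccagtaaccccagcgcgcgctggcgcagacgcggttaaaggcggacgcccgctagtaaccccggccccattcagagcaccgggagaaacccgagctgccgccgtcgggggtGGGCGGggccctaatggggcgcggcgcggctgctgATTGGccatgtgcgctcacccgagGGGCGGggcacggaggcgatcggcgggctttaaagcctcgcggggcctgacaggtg
Mlxipl, upstream start: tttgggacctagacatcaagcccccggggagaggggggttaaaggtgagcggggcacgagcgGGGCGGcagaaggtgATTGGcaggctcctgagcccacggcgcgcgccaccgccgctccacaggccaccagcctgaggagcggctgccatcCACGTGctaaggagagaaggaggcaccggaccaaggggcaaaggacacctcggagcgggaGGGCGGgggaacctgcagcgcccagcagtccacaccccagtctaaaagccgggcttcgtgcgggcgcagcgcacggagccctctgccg
Mlxipl, downstream start: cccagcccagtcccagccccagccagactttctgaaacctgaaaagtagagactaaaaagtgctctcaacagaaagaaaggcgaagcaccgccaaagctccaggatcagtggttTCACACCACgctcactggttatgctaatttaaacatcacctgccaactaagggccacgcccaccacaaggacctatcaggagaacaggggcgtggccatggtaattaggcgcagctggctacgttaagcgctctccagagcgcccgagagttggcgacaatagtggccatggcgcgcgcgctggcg
Fasn: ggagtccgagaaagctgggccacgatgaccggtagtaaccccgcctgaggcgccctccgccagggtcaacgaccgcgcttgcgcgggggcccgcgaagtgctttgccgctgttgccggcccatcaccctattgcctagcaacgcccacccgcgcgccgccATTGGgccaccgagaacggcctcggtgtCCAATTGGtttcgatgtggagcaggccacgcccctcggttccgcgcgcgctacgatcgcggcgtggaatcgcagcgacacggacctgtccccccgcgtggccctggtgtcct

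The upstream Mlxipl window was the only one of the 9 with an exact match to the E-box CACGTG. The downstream Mlxipl window was the only one with an exact match to the sterol string TCACNCCAC. Variants of the 4 motifs were not searched, so a window without a match, such as that of Srebf1 or Fasn, may still hold a sterol element. Of 32851 windows of this length in the RefSeq table, 7.15% held the E-box and 1.24% the sterol element. Among the 4 printed windows, the NF-Y box was found in the Fasn window in 3 places, of which 2 overlap as one palindrome, and in the downstream Srebf1 and upstream Mlxipl windows once each. The windows not printed also held matches, an NF-Y box in the most upstream Srebf1 window and in that of Acacb and 3 GC boxes in the middle Srebf1 window, while those of Acaca and Elovl6 held none of the 4 motifs. The NF-Y box occurs in 37.4% of all windows in the table, and the GC box, present among those printed in the downstream Srebf1 and the upstream Mlxipl windows, in 35.7%. The start sites of the printed Mlxipl windows lie 17001 bases apart. Mouse Mlxipl is known to give a long and a short form of ChREBP from different first exons, as Srebf1 gives SREBP-1a and SREBP-1c, and the deposited table has 1 value for each gene and library, so these forms were not told apart.

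The estimated counts summed to between 61443414 and 77237333 per library. Values by library are in the order of replicates 1, 2 and 3 throughout. The share of mitochondrial genes was 41.4%, 19.9% and 35.0% for the E16.5 libraries and 33.5%, 26.7% and 25.2% for the E18.5 libraries. E16.5 replicate 2 stood apart from the other E16.5 libraries in this share, and results that rest on it are given with and without it. Levels that are compared between libraries are TMM-scaled CPM, estimated counts relative to a library size corrected for its composition. Levels that are compared between genes are the deposited FPKM, which account for transcript length. Changes are from the edgeR quasi-likelihood test over all 19959 genes that passed the filter, with Benjamini-Hochberg adjustment over all of them and an adjusted p under 0.05 as the threshold. Of these genes, 30 passed (0.150%), with 19 higher at E18.5 (0.0952%) and 11 lower (0.0551%).

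None of the 10 genes passed that threshold, and 0 of 10 stands against a background of 0.150%. Both transcription factors were at a higher level in every E18.5 library than in any E16.5 library, with Mlxipl 1.91-fold and Srebf1 1.41-fold higher on average. At an unadjusted p under 0.05 there were 3 genes with a higher level at E18.5, Mlxipl, Srebf1 and Fasn, where 4.83% of all genes met that rule in that direction. Elovl6 met it with a lower level, as 4.70% of all genes did. The libraries of both stages did not overlap for 5 of the 10 genes: Mlxipl, Srebf1, Fasn and Acacb were higher at E18.5, an arrangement found for 8.45% of all genes, and Elovl6 was lower, as for 8.02%. The estimated log2 change was above 0 for 8 of the 10 genes (49.8% of all genes), with a median of 0.25 against -0.0019 over all genes tested. The members were picked with earlier results of these libraries known, so these counts describe the group and are no evidence that it differs from other genes.

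**Figure D1:**
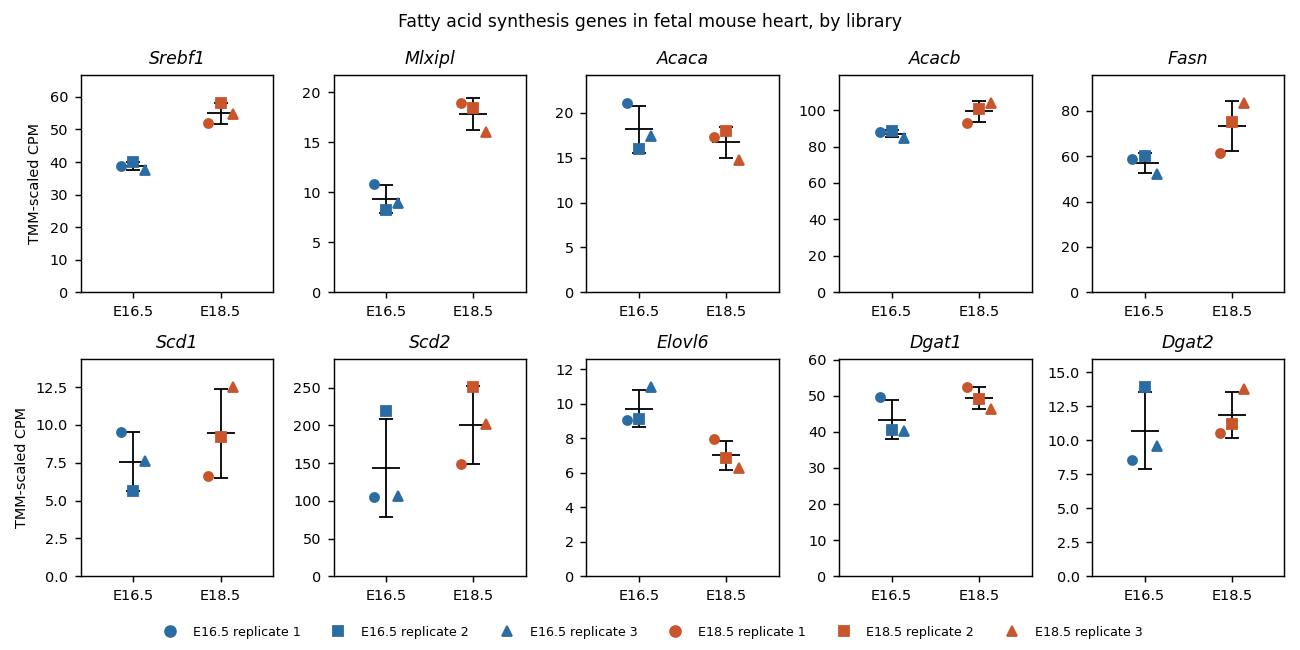
Level of each of the 10 genes in every library, as TMM-scaled CPM from 0, with the mean and SD over 3 libraries of a stage as black bars. Srebf1, Mlxipl, Acacb and Fasn lie higher in all E18.5 libraries than in all E16.5 libraries, Elovl6 lies lower, and the other 5 genes overlap.

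Mlxipl (ENSMUSG00000005373, GRCm38 chromosome 5, 135089890 to 135138382, plus strand) encodes ChREBP, the sugar-responsive activator of lipogenic and glycolytic genes. It was at 10.9, 8.24 and 8.90 CPM among the E16.5 libraries, against 18.9, 18.5 and 15.99 CPM among the E18.5 libraries. The lowest E18.5 library was thus well above the highest E16.5 library. The means were 9.34 ± 1.37 and 17.8 ± 1.59 CPM (SD, n = 3), and the log2 change was 0.93 ± 0.17 (SE), with an edgeR adjusted p of 0.136. An antisense gene, Gm43500, overlaps 235 exon bases of Mlxipl in GENCODE M21 and was not analysed here, so reads from its strand cannot be told apart if counting was not by strand. By the edgeR test Mlxipl ranked at place 63 of the 19959 genes. With the mitochondrial share of each library as a term in the same fit the log2 change was 0.9998 and the adjusted p 0.0198, below the threshold, in a fit that passed 0.922% of all genes and 0.646% with a higher level. DESeq2 gave 0.92 with an adjusted p of 3.69e-04, and passed 2.05% of all genes and 1.24% with a higher level. No other alternative passed for Mlxipl. The limma adjusted p was 0.456 on log2(FPKM + 1) and 0.385 on log2(FPKM + 0.1). With 1 library left out at a time the edgeR adjusted p ran from 0.0507 to 0.524.

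Srebf1 (ENSMUSG00000020538, chromosome 11, 60199089 to 60222581, minus strand) encodes the membrane-bound precursor of SREBP-1, which is cut in the Golgi to release the active factor. It was at 38.9, 40.1 and 37.7 CPM in E16.5 libraries, against 51.8, 58.2 and 54.9 CPM in E18.5 libraries. Each stage was tight, with a coefficient of variation of 3.14% at E16.5 and 5.75% at E18.5, and the gap between stages was larger than either spread. The log2 change was 0.50 ± 0.11 (SE), with an edgeR adjusted p of 0.205. DESeq2 gave 0.49 with an adjusted p of 0.0157, and the edgeR fit with the mitochondrial share gave 0.48 with an adjusted p of 0.0552. Only DESeq2 passed for Srebf1. The limma adjusted p was 0.818 on log2(FPKM + 1) and 0.802 on log2(FPKM + 0.1). With 1 library left out at a time the edgeR adjusted p ran from 0.0560 to 0.734.

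The 3′ end of Srebf1 overlaps the 3′ end of Rai1, a chromatin regulator gene on the other strand, and the sources used here do not give whether counting was by strand. In GENCODE M21 the overlap is 109 bases, of 5634 bases covered by Srebf1 exons. Rai1 was at 70.3 ± 10.4 CPM on average in E16.5 libraries, against 71.3 ± 3.53 CPM in E18.5 libraries (SD, n = 3), a log2 change of 0.02 with an edgeR adjusted p of 0.973. Its mean level was 151% of that of Srebf1, and its stages overlapped. When the counts of both genes were summed, the log2 change was 0.21 with an edgeR adjusted p of 0.628.

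**Figure D2:**
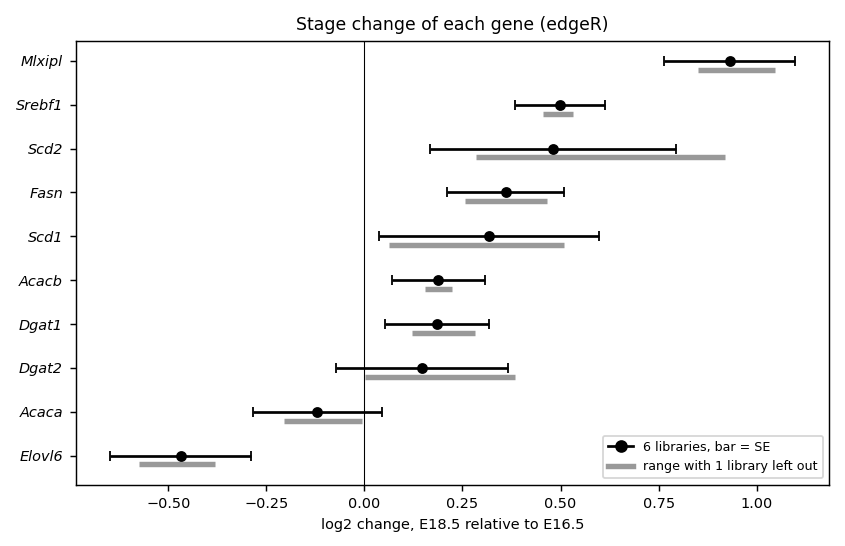
Estimated log2 change of each gene from E16.5 to E18.5 (horizontal axis, points, with SE as bars), and below each point the range of that estimate when each of the 6 libraries is left out in turn (grey). The 2 genes with the largest estimates are Mlxipl at 0.93 and Srebf1 at 0.50, Scd2 has the widest grey range, and no grey range crosses 0.

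The genes listed around both factors did not all lie in the same direction, and the list for SREBP was not one of its targets. Of 10 genes of SREBP processing and liver X receptor signalling, 4 were estimated higher and 6 lower, with a median log2 change of -0.13 and 0 past the adjusted threshold in either direction. Insig2, which retains the SREBP precursor in the endoplasmic reticulum, was at 8.22 ± 1.59 CPM on average in E16.5 libraries, against 12.2 ± 1.503 CPM in E18.5 libraries (log2 change 0.57, edgeR adjusted p = 0.402). Rxra, the partner of the liver X receptors, was at 23.6 ± 1.52 and 19.0 ± 1.42 CPM (-0.32, edgeR adjusted p = 0.511), and the receptor Nr1h2 had a log2 change of -0.44. Srebf2, which encodes the factor of cholesterol synthesis, was at 67.8 ± 7.29 and 72.5 ± 3.71 CPM, a log2 change of 0.10 (edgeR adjusted p = 0.833).

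A list of 7 partners and sugar-responsive targets of ChREBP, with its relative Mlxip among them, had 3 genes estimated higher and 4 lower. The median log2 change was -0.37, and 0 passed the threshold. The list holds genes of low counts: Gckr, estimated at 0.83, had 0 to 40 counts in a library, and Pklr, at -2.09, had 0 to 29. Txnip, an arrestin-like gene that ChREBP and its relative Mlxip are known to activate, was at 106, 131 and 112.5 CPM among the E16.5 libraries, against 59.1, 77.7 and 73.3 CPM among the E18.5 libraries. Its libraries did not overlap either, in the direction opposite to Mlxipl, with a log2 change of -0.73 ± 0.15 (SE) and an edgeR adjusted p of 0.175. Mlxip itself, which encodes MondoA, the sugar-responsive factor most abundant in muscle, was at 36.9 ± 0.934 CPM on average in E16.5 libraries, against 46.4 ± 4.42 CPM in E18.5 libraries (log2 change 0.33, edgeR adjusted p = 0.444). The fructose kinase gene Khk was at 6.17 ± 1.80 and 4.15 ± 0.0676 CPM (-0.57, edgeR adjusted p = 0.524).

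Per length, Mlxipl remained below Mlxip in every library. The FPKM of Mlxip was 2.19, 3.06 and 2.78 times that of Mlxipl among the E16.5 libraries, against 1.69, 1.49 and 2.07 times among the E18.5 libraries. The libraries of the stages did not overlap in this ratio, and the mean log2 ratio of Mlxipl to Mlxip was -1.41 ± 0.25 at E16.5 and -0.79 ± 0.24 at E18.5 (SD, n = 3). The exact permutation p was 0.10, two-sided, which is the smallest that 3 against 3 libraries allow. For Srebf1 and Srebf2 the mean log2 ratio of FPKM was -0.45 ± 0.20 at E16.5 and -0.05 ± 0.09 at E18.5. Here too the stages were separate, with an exact permutation p of 0.10. The FPKM of Srebf1 was 0.636 to 0.838 times that of Srebf2 in the E16.5 libraries and 0.913 to 1.04 times in the E18.5 libraries. The coding sequences of these pairs have 66.0% (Mlxipl and Mlxip) and 63.7% (Srebf1 and Srebf2) identical bases where they align.

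**Figure D3:**
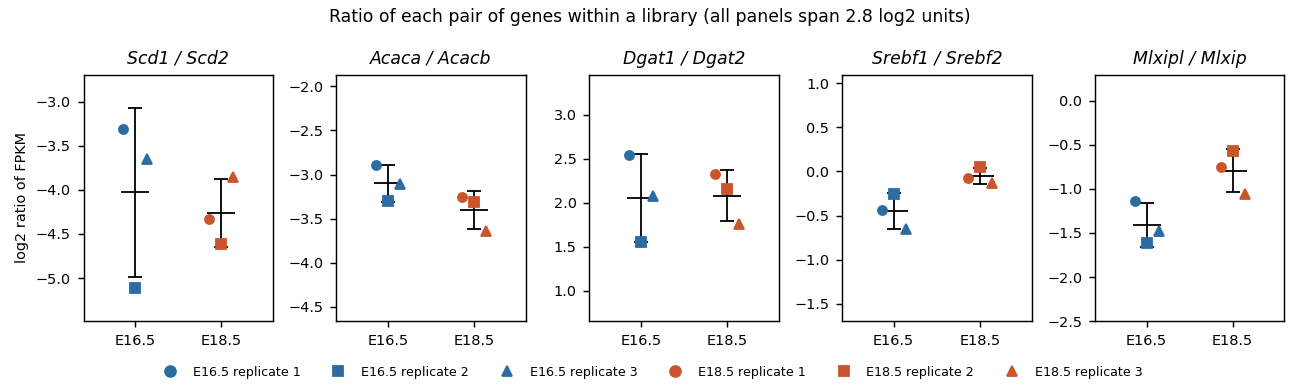
Log2 ratio of FPKM (vertical axis) for 5 pairs of genes within each library, with the mean and SD of 3 libraries as black bars. Srebf1 to Srebf2 and Mlxipl to Mlxip are higher in all E18.5 libraries than in all E16.5 libraries, and the other 3 ratios overlap between stages.

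By a rule of pattern alone, the tested genes closest to Srebf1 were Dhrs11, Ctsc and Fzd4, of 10627 genes with a mean of at least 5 CPM and an official symbol. Their centred log2 CPM differed from that of Srebf1 by 0.028, 0.030 and 0.037 on average over the 6 libraries. The genes closest to Mlxipl were Mcf2l, Klf9 and Casq1, at 0.11 each. Among the 10 genes, Fasn was nearest to Srebf1 (0.12) and Srebf1 nearest to Mlxipl (0.22). These genes were picked for their likeness to factors whose stages were separate, so their own stage differences were not independent of that choice.

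In the supply of substrate, all 7 genes of citrate export and acetyl-CoA supply had estimates above 0, as did 49.8% of all genes. These estimates ran from 0.06 to 0.46 with a median of 0.25, and 0 of the genes passed the threshold. An unadjusted edgeR p under 0.05 was found for 0 of the 7, and stages that did not overlap also for 0. ATP citrate lyase Acly, which makes cytosolic acetyl-CoA from citrate, was at 40.3 ± 10.2 CPM on average in E16.5 libraries, against 48.1 ± 6.24 CPM in E18.5 libraries (log2 change 0.25, edgeR adjusted p = 0.698). Acss2, which makes acetyl-CoA from acetate, was at 8.94 ± 1.66 and 12.3 ± 3.40 CPM (0.46, edgeR adjusted p = 0.578), and citrate synthase Cs had a log2 change of 0.26. In each of these 3 genes the stages overlapped. Of 6 genes of NADPH supply, 3 were estimated higher and 3 lower, and 0 passed. G6pdx, the entry enzyme of the pentose phosphate pathway, was at 15.1, 13.7 and 15.9 CPM among the E16.5 libraries, against 13.1, 10.2 and 10.2 CPM among the E18.5 libraries, a log2 change of -0.41 (edgeR adjusted p = 0.478). Pgd, the next dehydrogenase of that pathway, had an estimate of -0.21, and the malic enzyme Me1, counted in both lists, one of 0.28.

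Of the carboxylases, which carry out the first committed step, Acacb was the more abundant transcript. Acacb (ENSMUSG00000042010, chromosome 5, 114146535 to 114250761, plus strand) was at 88.1, 88.5 and 84.8 CPM in E16.5 libraries, against 93.1, 101 and 104 CPM in E18.5 libraries. These levels were uniform within a stage, and the E18.5 libraries were higher by a small step. The log2 change was 0.19 ± 0.12 (SE), with an edgeR adjusted p of 0.641. Acaca (ENSMUSG00000020532, chromosome 11, 84129672 to 84401651, plus strand), the cytosolic carboxylase of lipogenic tissue, was at 21.1, 15.9 and 17.4 CPM in E16.5 libraries, against 17.3, 18.0 and 14.8 CPM in E18.5 libraries. Its stages overlapped, with a log2 change of -0.12 ± 0.16 (SE) and an edgeR adjusted p of 0.835.

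On the FPKM scale Acacb was 7.40, 9.85 and 8.64 times as high as Acaca among the E16.5 libraries, against 9.53, 9.93 and 12.5 times among the E18.5 libraries. The mean log2 ratio of Acaca to Acacb was -3.10 ± 0.21 at E16.5 and -3.40 ± 0.21 at E18.5 (SD, n = 3), with overlap between stages and an exact permutation p of 0.20. The coding sequences of these genes share 71.7% of aligned bases and are of like length, 7035 bases for Acaca and 7344 for Acacb. All exons together cover 17074 bases of Acaca and 9632 of Acacb, so the FPKM ratio depends on the length used. In mean CPM over the 6 libraries, which is not divided by length, Acaca was at 17.4 and Acacb at 93.2. Acaca has a processed copy, Gm5182 on chromosome 12, that matches it over 6118 bases at 99.2% identity. Gm5182 held 7.72% of the CPM of Acaca, and with their counts added together the log2 change was -0.10 (edgeR adjusted p = 0.852).

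Genes that set malonyl-CoA and carboxylase activity had a median log2 change of 0.10, with 6 of 10 estimated higher, 4 lower and 0 past the threshold. The smallest p among them belonged to Prkag2, a regulatory subunit of the AMP-activated kinase that switches carboxylase off, at 42.0 ± 7.02 CPM on average in E16.5 libraries, against 61.4 ± 9.07 CPM in E18.5 libraries (log2 change 0.55, edgeR adjusted p = 0.362). Prkab2, another subunit of that kinase, had an estimate of 0.31. Mid1ip1, which activates acetyl-CoA carboxylase by helping it polymerise, had one of 0.25.

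Fasn (ENSMUSG00000025153, chromosome 11, 120805846 to 120824547, minus strand) encodes the multifunctional synthase that releases palmitate. It was at 58.9, 60.3 and 52.2 CPM among the E16.5 libraries, against 61.3, 75.1 and 83.5 CPM among the E18.5 libraries. The stages did not overlap, but E18.5 replicate 1 lay next to the highest E16.5 library. The log2 change was 0.36 ± 0.15 (SE), with an edgeR adjusted p of 0.497. Without E16.5 replicate 2 it was 0.40 with an edgeR adjusted p of 0.166, and the range over the 6 fits that each leave out 1 library was 0.26 to 0.47. No near-identical copy and no overlapping gene was found for Fasn in GENCODE M21.

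Elovl6 (ENSMUSG00000041220, chromosome 3, 129532355 to 129638495, plus strand), which lengthens palmitate, had the lowest estimate of the 10 genes. It was at 9.07, 9.09 and 11.0 CPM in E16.5 libraries, against 7.94, 6.84 and 6.28 CPM in E18.5 libraries. Every E18.5 library was below every E16.5 library. The means were 9.71 ± 1.09 and 7.02 ± 0.845 CPM (SD, n = 3), and the log2 change was -0.47 ± 0.18 (SE) with an edgeR adjusted p of 0.460. An antisense gene, Gm35986, overlaps 34 exon bases of Elovl6 and was not analysed here. A processed copy on another chromosome, Gm11295, matches Elovl6 over 805 bases at 97.4% identity and was not among the genes of the deposited table, so its share of reads was not measured.

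Of the other 14 elongase and desaturase genes tested, 12 were estimated higher, as were 49.8% of all genes, and 2 lower. Their median was 0.16, with 0 past the threshold. Scd4, a stearoyl-CoA desaturase known from mouse heart, was at 2.25, 2.14 and 3.15 CPM among the E16.5 libraries, against 4.32, 4.52 and 5.36 CPM among the E18.5 libraries. The stages were separate, with a log2 change of 0.91 ± 0.25 (SE) and an edgeR adjusted p of 0.297, nearly the estimate of Mlxipl from a far lower level. Tecr, the reductase that ends each round of elongation, was at 177 ± 41.1 CPM on average in E16.5 libraries, against 125 ± 19.1 CPM in E18.5 libraries (log2 change -0.50, edgeR adjusted p = 0.483). Hacd1, the muscle dehydratase of the same cycle, was at 41.4 ± 9.21 and 54.1 ± 3.199 CPM (0.39, edgeR adjusted p = 0.520). Scd3 held 6, 3 and 5 counts among the E16.5 libraries, against 0 in each E18.5 library, too few for the test.

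Of the 10 genes, Scd2 had the widest spread between E16.5 libraries, with a coefficient of variation of 45.2%, and Scd1 the widest between E18.5 libraries, with 31.3%. Scd2 (ENSMUSG00000025203, chromosome 19, 44293674 to 44306864, plus strand), the desaturase of fetal tissues and brain, was at 105, 218 and 107 CPM among the E16.5 libraries, against 149, 251 and 202 CPM among the E18.5 libraries. E16.5 replicate 2 was thus above 2 of the 3 E18.5 libraries and at 2.06 times the geometric mean of the other 2 E16.5 libraries. The log2 change was 0.48 ± 0.31 (SE), with an edgeR adjusted p of 0.650. Without E16.5 replicate 2 it was 0.92 with an edgeR adjusted p of 0.0630, and with the mitochondrial share as a term it was 0.34 with an edgeR adjusted p of 0.319. Ordered by mitochondrial share from the lowest, the libraries had 218, 202, 251, 149, 107 and 105 CPM of Scd2, so that the 3 libraries with a share under 30% were the 3 highest. In the same order of libraries Dgat2 was at 13.9, 13.8, 11.2, 10.5, 9.60 and 8.58 CPM, each lower than the one before. What part that share has in either level was not tested beyond the same fit, which gave Dgat2 a log2 change of 0.05 (edgeR adjusted p = 0.911).

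Scd1 (ENSMUSG00000037071, chromosome 19, 44394455 to 44407879, minus strand), the main desaturase of liver and fat, was at 9.504, 5.66 and 7.59 CPM in E16.5 libraries, against 6.62, 9.20 and 12.5 CPM in E18.5 libraries. Its stages overlapped, with a log2 change of 0.32 ± 0.28 (SE) and an edgeR adjusted p of 0.737. With 1 library left out at a time the estimate ran from 0.06, without E18.5 replicate 3, to 0.51, without E18.5 replicate 1. Hepatocyte markers summed to 77.8, 42.8 and 95.2 CPM among the E16.5 libraries, against 54.8, 36.9 and 117 CPM among the E18.5 libraries, so that E18.5 replicate 3 was highest in both measures. Markers of lung epithelium summed to 162.6, 100.3 and 94.9 CPM and to 91.3, 88.6 and 159 CPM in the same order. The part of either tissue in the level of Scd1 was not tested.

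Per length, Scd2 was the highest of the 10 genes and 9.94 to 34.6 times Scd1 at E16.5 and 14.4 to 24.4 times at E18.5. The mean log2 ratio of Scd1 to Scd2 was -4.03 ± 0.96 at E16.5 and -4.26 ± 0.38 at E18.5 (SD, n = 3), with an exact permutation p of 0.70. The coding sequences of both genes are 90.3% identical, and a stretch of 623 bases of Scd2 matches a noncoding Scd1 transcript at 95.5%, so the division of reads between them is uncertain. Summed over Scd1 to Scd4, the log2 change was 0.48 with an edgeR adjusted p of 0.627, the same estimate as for Scd2 alone.

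**Figure D4:**
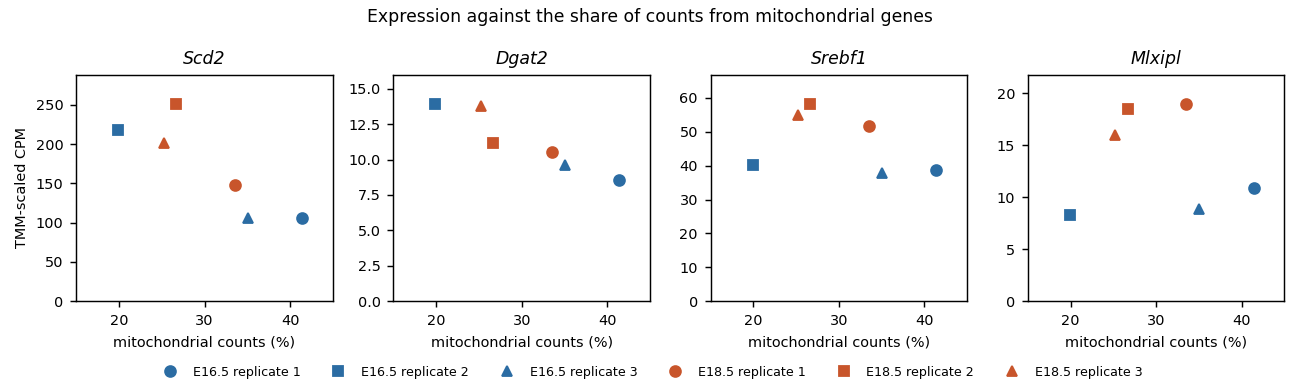
Level of Scd2, Dgat2, Srebf1 and Mlxipl (vertical axes, TMM-scaled CPM from 0) against the percentage of counts from mitochondrial genes in the 6 libraries. Scd2 is at 202 to 251 CPM in the 3 libraries under 30% and at 105 to 149 CPM in the others. Srebf1 and Mlxipl are higher in every E18.5 library than in any E16.5 library.

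The last step of triglyceride synthesis can be carried out by Dgat1 or Dgat2, which are unrelated in sequence family. Dgat1 (ENSMUSG00000022555, chromosome 15, 76502015 to 76511953, minus strand) was at 49.6, 40.4 and 40.1 CPM among the E16.5 libraries, against 52.4, 49.2 and 46.3 CPM among the E18.5 libraries. The stages overlapped through E16.5 replicate 1, and the log2 change was 0.18 ± 0.13 (SE) with an edgeR adjusted p of 0.687. Dgat2 (ENSMUSG00000030747, chromosome 7, 99153658 to 99182719, minus strand) was at 8.58, 13.9 and 9.60 CPM in E16.5 libraries, against 10.5, 11.2 and 13.8 CPM in E18.5 libraries. E16.5 replicate 2 held its highest level, at 1.53 times the geometric mean of the other 2 E16.5 libraries. The log2 change was 0.15 ± 0.22 (SE) with an edgeR adjusted p of 0.850, and over the 6 fits that each leave out 1 library it ran from 0.00087, without E16.5 replicate 1, to 0.38, without E16.5 replicate 2 (edgeR adjusted p = 0.9997 and 0.247).

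On the FPKM scale Dgat1 was above Dgat2 in all 6 libraries, by 5.84, 2.93 and 4.21 times among the E16.5 libraries, against 5.01, 4.44 and 3.39 times among the E18.5 libraries. The mean log2 ratio was 2.06 ± 0.50 at E16.5 and 2.08 ± 0.29 at E18.5 (SD, n = 3), with an exact permutation p of 1. In glycerolipid assembly, which supplies their substrate, 13 of 17 tested genes were estimated higher, as were 49.8% of all genes, and 4 lower. The median log2 change was 0.06, with 0 past the threshold. Gpd1, which makes glycerol 3-phosphate, was at 6.16 ± 1.95 CPM on average in E16.5 libraries, against 8.76 ± 0.790 CPM in E18.5 libraries (log2 change 0.51, edgeR adjusted p = 0.569). Fitm2, a protein needed for lipid droplets to form, was at 5.87 ± 1.48 and 7.86 ± 0.120 CPM (0.42, edgeR adjusted p = 0.571), and the acyltransferase Agpat5 had an estimate of 0.61.

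**Figure D5:**
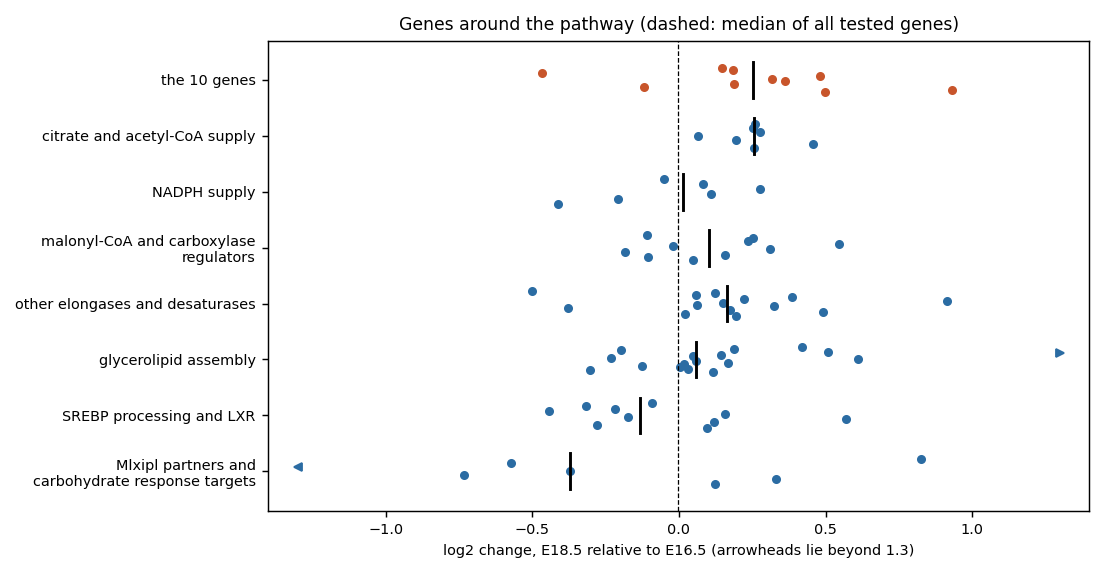
Log2 change from E16.5 to E18.5 (horizontal axis) of every tested gene in the 10 genes (top row) and in 7 lists of genes around them, with the median of each list as a black bar, the median of all tested genes as a dashed line and 2 genes beyond the axis as arrowheads. The medians run from 0.25 for the 10 genes and for citrate and acetyl-CoA supply to -0.37 for the list of Mlxipl partners and targets, which includes Mlxip. None of the genes drawn passed the adjusted threshold.

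Over all 7 lists around the 10 genes, 70 different genes were tested, of which 47 were estimated higher, as were 49.8% of all genes, and 23 lower. Their median log2 change was 0.10, with 0 past the adjusted threshold, where 0.150% of all genes passed. By mean FPKM over the 6 libraries the order of levels ran from Scd2 (30.4) through Dgat1 (13.99), Acacb (9.02), Srebf1 (7.78), Fasn (5.59), Dgat2 (3.47), Mlxipl (2.27), Scd1 (1.61) and Elovl6 (1.19) to Acaca (0.935). Each gene was above the next in 6 of 6 libraries, except Scd1, which was above Elovl6 in 4 and below it in E16.5 replicates 2 and 3. The last place of Acaca depends on its length, as its mean CPM was 17.4, against 8.36 for Elovl6. The ranges over libraries of every neighbouring pair but Dgat1 and Acacb overlapped, for instance from 14.2 to 45.9 for Scd2 and from 11.0 to 16.1 for Dgat1.

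In whole hearts, fewer cells of a type and less RNA per cell cannot be told apart. All 9 markers of cardiomyocytes were detected, and their sum ran from 32468 to 41642 CPM in the E16.5 libraries and from 37597 to 45960 CPM in the E18.5 libraries. Markers of adipocytes, which express these enzymes strongly, summed to between 2.43 and 5.33 CPM at E16.5 and between 3.51 and 4.85 CPM at E18.5. Of the 9 markers listed, Cidea held 103 to 331 counts in a library and Pck1 10 to 84. The others, Adipoq and Plin1 among them, had at most 13 counts in any library. The part of fat cells in the levels of the 10 genes was not tested. Fibroblast markers summed to between 1538 and 2534 CPM at E16.5 and between 2670 and 3503 CPM at E18.5. Of these, 7 of 7 were estimated higher, as were 49.8% of all genes, and 0 passed the threshold. Epicardial markers summed to between 161 and 174 CPM and between 213 and 275 CPM, with 7 of 8 estimated higher. Among them, 1 of 8, Krt19, passed the threshold with a higher level, as 0.0952% of all genes did. These sums separated the stages as Srebf1 and Mlxipl did, and their part in the levels of the 10 genes was not tested. The sums of endothelial, Schwann cell, macrophage and erythroid markers overlapped between stages.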

How the data were processed

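Heart RNA of 3 E16.5 and 3 E18.5 libraries was analysed from 1 table. Per the file headers, the authors deposited estimated counts (whole numbers) and FPKM values for each gene and library. Named in the submitters' processing notes, with no roles, are StringTie 1.3.4d, HISAT2 2.0.4, cutadapt 1.9, UMI-tools and the build mm9. The use of UMIs and of strand in counting was not given in the sources used here. Both bear on overlapping and duplicated genes.

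The estimated counts, used as deposited, were tested with edgeR 4.0.16 in R 4.3.3 (filterByExpr, TMM, quasi-likelihood, two-sided, stage as the only term, Benjamini-Hochberg over all genes). SE is the absolute log2 change over the square root of F. Ratios of deposited FPKM were compared by exact permutation. Alternatives were DESeq2 1.42.0, limma 3.58.1 on log2(FPKM + 1) and log2(FPKM + 0.1), other scalings and filters, a replicate block, the mitochondrial share, summed genes and each library left out. Positions, overlaps and copies (at least 95% identity over 100 bases, BLAST 2.17.0) come from GENCODE M21 (GRCm38). The deposited coordinates are of another build and are not used. Coding sequences were aligned with Biopython 1.88. All 10 genes, the pathway lists (up to 3 genes with the smallest p named for each), the 3 genes nearest in pattern to Srebf1 and to Mlxipl, and the marker lists were chosen with earlier results of these data known.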

Additional observations from a re-analysis of the deposited data

How the results depend on the processing

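No direction of any of the 10 genes changed under any alternative run, which were 16 or 17 for each gene. Where there were 17, for Srebf1, Acaca, Scd1 and Scd2, 1 was the fit of summed counts. That fit describes the sum and not the single gene. The adjusted threshold was passed by Srebf1 (log2 change 0.49) and Mlxipl (0.92) in DESeq2 and by Mlxipl (0.9998) with the mitochondrial share as a term, and in no other gene or setting. Over the fits that leave out 1 library, the log2 change ran from 0.85 to 1.05 for Mlxipl, 0.46 to 0.53 for Srebf1, 0.29 to 0.92 for Scd2, 0.06 to 0.51 for Scd1, 0.26 to 0.47 for Fasn, 0.15 to 0.22 for Acacb, 0.12 to 0.28 for Dgat1, 0.00087 to 0.38 for Dgat2, -0.20 to -0.0063 for Acaca and -0.57 to -0.38 for Elovl6. The count of genes changed over the whole table was 30, and 408 in DESeq2, 184 with the mitochondrial share as a term, and 3 and 6 in limma with 1 and 0.1 added to FPKM. It ran from 8 without E16.5 replicate 3 to 371 without E16.5 replicate 2, and was 16 without E16.5 replicate 1 and 13, 10 and 12 without E18.5 replicates 1, 2 and 3. The cause was not tested. The stage difference in the log2 ratio of Scd1 to Scd2 turned from -0.24 to 0.12 without E16.5 replicate 1 and ran down to -0.78 without E16.5 replicate 2. That of Dgat1 to Dgat2 turned from 0.02 to -0.23 without E16.5 replicate 2, to -0.10 without E18.5 replicate 1 and to -0.015 without E18.5 replicate 2, and ran up to 0.27 without E16.5 replicate 1, while the leave-one-out fits of these ratios cannot reach an exact permutation p under 0.2. The summed genes Acaca and Gm5182, and the fit without globin and mitochondrial genes, were added after the data were seen.

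Libraries of both stages share replicate numbers, and their deviations from the stage mean correlated at 0.26, 0.37 and -0.066 for numbers 1, 2 and 3. Pairs of unlike number ran from -0.45 to 0.29. So few correlations cannot show whether libraries of the same number share a litter or a batch. With the replicate block 43 genes changed in place of 30, and the log2 change was 0.94 for Mlxipl and 0.50 for Srebf1. It changed no call among the 10 genes.

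The 10 genes held between 422 and 17734 estimated counts in a library. Scd3, with at most 6, was too low to test.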
